A study of Oncorhynchus mykiss with 6 samples.

Results

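Ribosome footprints, the short pieces of mRNA that ribosomes protect from nuclease, were measured in the liver of a salmonid fish of cold water, the rainbow trout. The genes described here are the enzymes of lipid metabolism and of cofactor, vitamin, terpenoid and minor amino acid metabolism that are not among the best known cholesterol, fatty acid, xenobiotic and heme synthesis genes. They were taken as the rows of the deposited table whose second-level KEGG class begins with "Lipid me" or "Metaboli", leaving out 16 symbols, which removed 7 rows. This gave 48 of the 1213 genes of the table, 26 in the lipid class and 22 in the other. The heat stress group holds 3 libraries of liver kept at 24 °C for 8 h. The control group holds 3 libraries of liver kept at 18 °C per the sample descriptions, or at 20 °C per the treatment protocol. The labels speak of liver placed at a temperature and name no fish, so it is unknown whether the libraries are separate animals, and each p-value covers only the variation among these 6 libraries, some of which can be technical. The strain, sex and age of the fish were not given.

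Every gene in the table had already passed the authors' FDR of 0.05 with at least a 2-fold change between these same libraries. Whether a member is high or low in heat stress, and largely whether it passes a test, was therefore set when the table was made, and fold changes of genes chosen this way tend to be too large. Other genes were not part of the data used. The listed genes held 438701 to 863769 footprints per library in heat stress and 362308 to 503370 in control, of which the 48 members took 3242 to 6691 in heat stress and 4914 to 7008 in control. Depth relative to control replicate 1 was 72.2%, 41.4% and 82.0% in heat stress replicates 1, 2 and 3, and 76.4% and 65.5% in control replicates 2 and 3. Heat stress replicate 2 was thus the shallowest library. Levels are given as the authors' FPKM, footprints per kilobase of gene scaled to library depth, and fold changes come from limma-voom on the footprint counts with recovered depth as library size.

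The liver is the main site of sterol, bile acid and phospholipid synthesis in vertebrates, and it stores or activates folate, retinol, vitamin D and vitamin K. Sterols and dolichol, the lipid that carries sugar chains for protein glycosylation, share the mevalonate pathway as their source of isoprene units. Phospholipids are built from glycerol 3-phosphate and from phosphorylated choline or ethanolamine, and sphingolipids from serine and palmitate. Folate carries one-carbon units for nucleotide and methionine synthesis, and tetrahydrobiopterin, made from GTP, serves aromatic amino acid hydroxylases.

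The members went both ways. The sterol synthesis genes mvda and lss, elovl6, gpd1, Gch1, Fpgs and GPCPD1 fell in heat stress, while the sterol synthesis gene cyp51 did not pass the test. The p23 genes, a dihydrofolate-related gene, both sphingolipid members, Hccs and chac1 rose. By the sign in the authors' deposited table, 29 members are higher and 19 lower in heat stress. The higher members make up 60.4% of the 48, against 76.2% of the whole table, and the lower ones 39.6%, against 23.8% of the whole table, 23.2% of the 1165 entries outside the members and 35.0% of the 40 entries of amino acid and carbohydrate metabolism. Of the 48, 43 had enough footprints for a test (10 footprints after depth scaling in at least 3 libraries, and 15 over the 6). A member could meet this limit through a single group. chac1, Vkorc1l1, CERS5 and PLPP1 did so through heat stress, and GPCPD1 and mvda through control. By limma-voom with p-values adjusted over about 29300 genes, 31 of the 43 passed an adjusted p of 0.05, or 72.1%, against 87.5% of all tested entries. Of these, 21 rose, 48.8% of the tested members against 71.3% of all tested entries, and 10 fell, 23.3% against 16.2%. The other 12 tested members did not pass, 4 with a higher and 8 with a lower mean in heat stress. FPKM values of the groups did not overlap in 46 of the 48, against 98.7% of all entries, and the exceptions were LIPG and PLAAT4. A lack of overlap is thus shared by nearly all listed genes and sets no member apart.

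These counts rested on single libraries and on the scale. Of the 21 rises, 12 were called again whichever library was dropped, 27.9% of the tested members against 35.9% of all tested entries. Of the 10 falls only GPCPD1 kept its call throughout, 1 of the 43 tested members. Of the 187 falls among all 1152 tested entries, 55 kept theirs, 4.77% of those entries. Without control replicate 1 the counts were 13 higher and 7 lower, without heat stress replicate 3 they were 17 and 2, and without heat stress replicate 2 they were 17 and 3. Without heat stress replicate 1 they were 20 and 6, and without control replicates 2 and 3 they were 18 and 3, and 16 and 2. The share of all tested entries was not counted for each left-out library. With median-of-ratios factors over the listed genes, which take most listed genes as unchanged, 1 of the 43 tested members was higher and 18 lower. On that scale 88 of all 1152 tested entries were higher (7.64%) and 266 lower (23.1%). That scale moved the median log2 fold change of all tested entries by -1.54, and that of the tested members to -0.10, in place of 1.45.

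**Figure D1:**
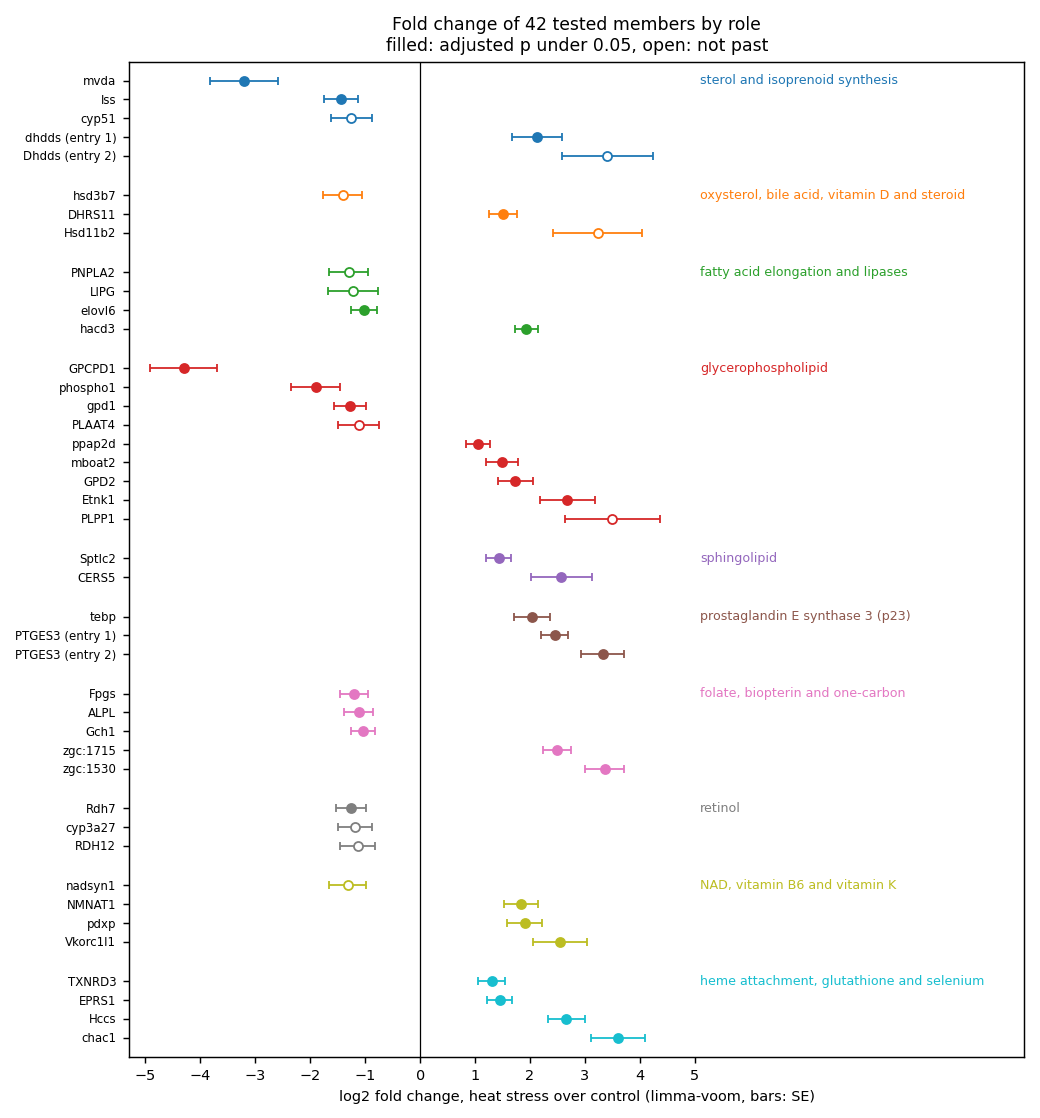
Log2 fold change of 42 tested members, heat stress over control, by limma-voom with recovered depth, grouped by role and coloured by group. Points are estimates, bars are standard errors, filled points passed an adjusted p of 0.05 (31 members) and open points did not (11 members). The estimates run between -4.30 for GPCPD1 and 3.60 for chac1. Only the sphingolipid, p23 and heme, glutathione and selenium groups lie entirely on one side with every member past the test. These groups hold 2, 3 and 4 members, all called higher in heat stress, as were 71.3% of all tested entries.

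Sterol and isoprenoid synthesis has 5 members, of which 2 fell, 1 rose and 2 did not pass. mvda, the gene of mevalonate diphosphate decarboxylase, which makes the isoprene unit, had 0.95, 0.00 and 0.50 FPKM in heat stress replicates 1, 2 and 3, against 3.75, 4.45 and 4.42 FPKM in control replicates 1, 2 and 3. Every heat stress library was far below every control library, and 98.7% of all entries likewise showed no overlap. The shallowest library held no footprint of mvda. mvda fell with a log2 fold change of -3.21 ± 0.62 (SE; limma-voom adjusted p = 0.0151). It met the footprint limit for the test only through the control libraries. lss, the gene of lanosterol synthase, which closes the sterol rings, had 4.73, 5.20 and 5.09 FPKM in heat stress and 9.49, 20.7 and 13.1 FPKM in control. The heat stress libraries agreed closely, while control replicate 2 stood above the other controls. The log2 fold change of lss was -1.44 ± 0.31 (limma-voom adjusted p = 0.0279). cyp51, whose enzyme removes a methyl group from lanosterol, had 2.57, 1.57 and 2.42 FPKM in heat stress and 4.23, 7.49 and 5.36 FPKM in control. The groups did not overlap, as in 98.7% of all entries, and cyp51 did not pass (log2 fold change -1.25 ± 0.37, limma-voom adjusted p = 0.172). Dropping heat stress replicate 2 or 3 ended the mvda call (limma-voom adjusted p up to 0.0939). The lss call held without control replicate 1 and was lost without any other library, where the limma-voom adjusted p reached 0.113.

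dhdds encodes the subunit that elongates the isoprenoid chain of dolichol, and it uses the same isoprene units as the sterol genes. The entry spelled dhdds had 8.27, 8.33 and 5.04 FPKM in heat stress and 1.02, 2.32 and 1.52 FPKM in control. Every heat stress library was above every control library, and 98.7% of all entries likewise showed no overlap. This entry rose with a log2 fold change of 2.13 ± 0.45 (limma-voom adjusted p = 0.0242), a call lost without control replicate 1 or 3 or heat stress replicate 1 or 2 (adjusted p up to 0.155). The entry spelled Dhdds had 6.32, 4.54 and 7.79 FPKM in heat stress and 1.02, 0.00 and 2.02 FPKM in control, and did not pass (log2 fold change 3.41 ± 0.83, limma-voom adjusted p = 0.0514). Sterol synthesis genes other than the best known cholesterol genes were also looked for by the start of a symbol. This gave 4 entries, of which 3 fell and 1 did not pass, where 16.2% of all tested entries fell. The median log2 fold change of the 4 was -1.44, against 1.66 over all tested entries. The entry that is no member is hmgcs1, the gene of the cytosolic HMG-CoA synthase, at 3.92 ± 0.336 FPKM in heat stress and 11.4 ± 3.70 FPKM in control (SD, n = 3; log2 fold change -1.44 ± 0.32, limma-voom adjusted p = 0.0290, up to 0.137 with 1 library left out).

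**Figure D2:**
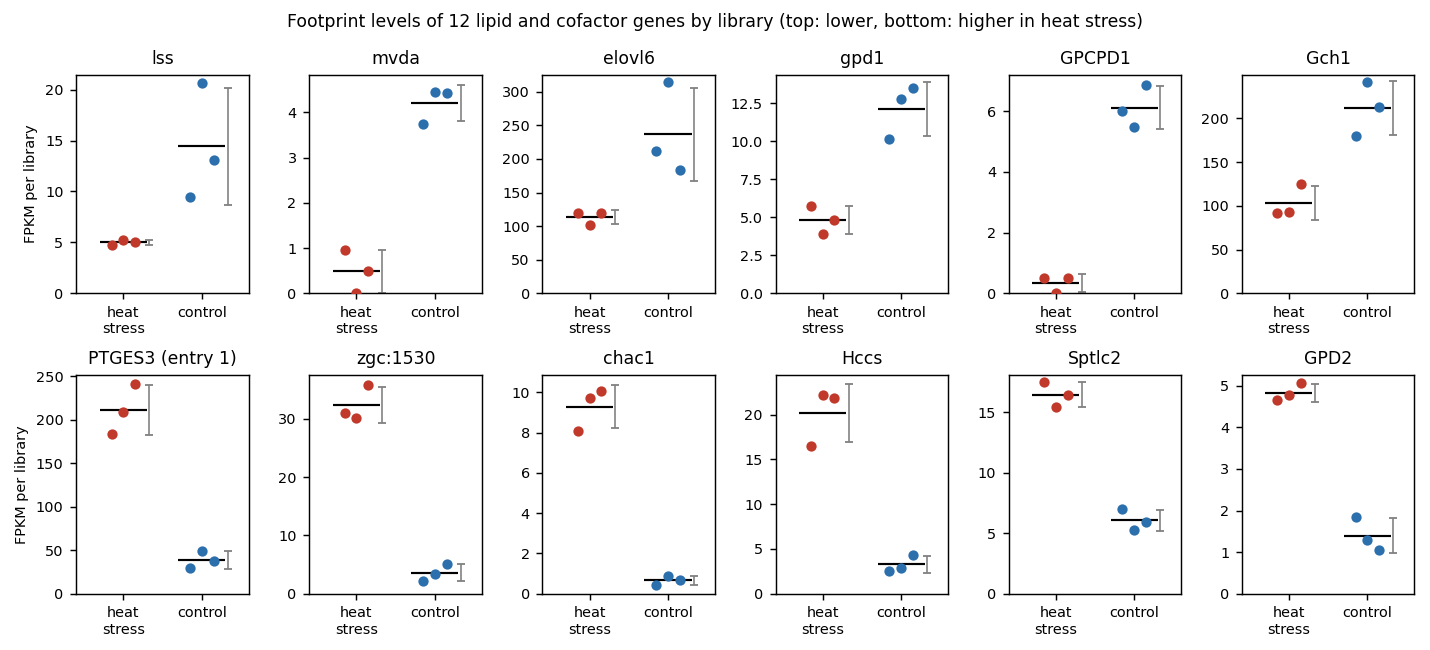
FPKM in each library for 12 members, on linear axes that start at 0, with heat stress on the left and control on the right of each panel. Points are libraries, ordered by replicate number, black lines are group means and grey bars show the SD of the 3 libraries. In the top row every heat stress point lies below every control point, and in the bottom row every heat stress point lies above. The groups likewise did not overlap in 98.7% of all entries.

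Of the 5 members that act on oxysterols, bile acids, vitamin D or steroid hormones, 1 rose, 2 missed the threshold and 2 had too few footprints for the test. DHRS11, a short-chain reductase gene filed under steroid hormone synthesis, had 63.5, 89.7 and 76.9 FPKM in heat stress and 25.9, 34.4 and 20.9 FPKM in control. The groups stood well apart, and DHRS11 rose (log2 fold change 1.51 ± 0.25, limma-voom adjusted p = 0.00638, up to 0.0418 with each library left out), while its median-of-ratios estimate was -0.03. hsd3b7, the gene of an early dehydrogenase of bile acid synthesis, had 7.31, 2.85 and 3.57 FPKM in heat stress and 10.9, 10.9 and 14.1 FPKM in control (log2 fold change -1.41 ± 0.36, limma-voom adjusted p = 0.0645). Hsd11b2, whose enzyme inactivates cortisol, had 4.86, 8.38 and 6.63 FPKM in heat stress and 1.66, 1.59 and 0.00 FPKM in control (log2 fold change 3.23 ± 0.81, limma-voom adjusted p = 0.0630). Neither passed, and their groups did not overlap, as in 98.7% of all entries.

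CYP2R1, the vitamin D 25-hydroxylase gene, was nearly lost from the heat stress libraries. It had 1, 0 and 1 footprints in heat stress replicates 1, 2 and 3, against 12, 54 and 44 in control replicates 1, 2 and 3. Control replicate 1 stood below the other controls, at 1.09 FPKM against 6.44 and 6.12 FPKM. Over the summed libraries the level was 44.4-fold lower in heat stress, with a 95% exact interval of 12-fold to 372-fold that covers counting error only. ch25h, the gene of cholesterol 25-hydroxylase, had 9, 5 and 5 footprints in heat stress and 0 in every control library. Set against a limit of 3 footprints for the summed controls, ch25h was 7.84-fold higher. This figure takes the heat stress footprints as exact, so it leaves out their counting error. Over all tested entries 71.3% were higher. Of 4 entries found by the start of a steroid or bile acid symbol, 2 were higher and 2 did not pass (median log2 fold change 1.59). The 2 that were higher, Comtd1 and CELF1, matched by the start of their symbols and are not steroid genes.

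Fatty acid elongation has 2 members, and they went opposite ways. elovl6, the elongase gene that turns palmitate into stearate, had 120, 102 and 119 FPKM in heat stress, against 212, 315 and 184 FPKM in control, where it was by its mean the most abundant member. All heat stress libraries were below all controls, and 98.7% of all entries likewise showed no overlap. elovl6 fell with a log2 fold change of -1.02 ± 0.24 (limma-voom adjusted p = 0.0412). That call was lost without any single library (adjusted p up to 0.200). hacd3 encodes a dehydratase of very long chain elongation. It had 53.0, 52.3 and 53.1 FPKM in heat stress, where the 3 libraries nearly coincided, and 14.7, 14.5 and 12.3 FPKM in control. hacd3 rose with a log2 fold change of 1.93 ± 0.21 (limma-voom adjusted p = 0.000491), and with each library left out in turn (adjusted p up to 0.00466).

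Both lipase members had lower means in heat stress and did not pass. PNPLA2, the adipose triglyceride lipase gene that opens triglyceride breakdown, had 30.1, 18.4 and 26.2 FPKM in heat stress and 32.7, 91.0 and 76.4 FPKM in control. LIPG, the endothelial lipase gene, whose enzyme acts on lipoprotein phospholipids, had 26.3, 18.0 and 15.4 FPKM in heat stress and 20.7, 83.7 and 54.1 FPKM in control. In both genes control replicate 1 lay near the heat stress libraries, and for LIPG it lay below heat stress replicate 1. The log2 fold changes were -1.30 ± 0.36 for PNPLA2 (limma-voom adjusted p = 0.122) and -1.22 ± 0.45 for LIPG (limma-voom adjusted p = 0.50). Without control replicate 1 PNPLA2 passed (log2 fold change -1.75, limma-voom adjusted p = 0.0113), as did LIPG (log2 fold change -1.79, limma-voom adjusted p = 0.0215). Neither gene passed when any other single library was left out. Without control replicate 2 the log2 fold changes were -1.01 for PNPLA2 and -0.77 for LIPG. Of 7 entries found by the start of a fatty acid gene's symbol, 5 rose and 2 fell, with a median log2 fold change of 1.93. This is close to the whole table, where 71.3% of tested entries rose and 16.2% fell, with a median of 1.66.

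The glycerophospholipid group is the largest, with 10 members, of which 4 rose, 3 fell, 2 missed the threshold and 1 had too few footprints for the test. GPCPD1, whose enzyme splits glycerophosphocholine into choline and glycerol phosphate, had the largest fall of all tested members. It had 0.51, 0.00 and 0.52 FPKM in heat stress, from 5, 0 and 6 footprints, against 6.0, 5.46 and 6.86 FPKM in control, from 84, 60 and 62 footprints. The log2 fold change was -4.30 ± 0.61 (limma-voom adjusted p = 0.00269), and the call held with each library left out (adjusted p up to 0.0168). GPCPD1 met the footprint limit for the test only through the control libraries. phospho1, a phosphatase gene for phosphocholine and phosphoethanolamine known from mammalian bone, had 5.65, 2.57 and 7.55 FPKM in heat stress and 12.7, 24.5 and 28.1 FPKM in control. It fell with a log2 fold change of -1.90 ± 0.45 (limma-voom adjusted p = 0.0473), and passed without control replicate 1 but without no other single library (adjusted p up to 0.169).

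The 2 glycerol 3-phosphate dehydrogenase genes, whose enzymes form a shuttle between cytosol and mitochondria, moved in opposite directions. gpd1, the cytosolic enzyme, had 5.73, 3.92 and 4.81 FPKM in heat stress and 10.1, 12.8 and 13.5 FPKM in control. GPD2, the mitochondrial enzyme, had 4.65, 4.78 and 5.06 FPKM in heat stress and 1.85, 1.30 and 1.04 FPKM in control. The heat stress levels of the 2 genes therefore lay within the same range, while in control gpd1 was the higher in every library. The log2 fold change was -1.28 ± 0.29 for gpd1 (limma-voom adjusted p = 0.0364) and 1.73 ± 0.32 for GPD2 (limma-voom adjusted p = 0.0115). The gpd1 call was lost without any single library (adjusted p up to 0.194), and that of GPD2 without control replicate 2 or 3 (adjusted p up to 0.0594).

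Etnk1, the ethanolamine kinase gene at the entry to phosphatidylethanolamine synthesis, had 5.70, 6.47 and 7.29 FPKM in heat stress and 0.83, 0.50 and 2.27 FPKM in control, and rose (log2 fold change 2.68 ± 0.50, limma-voom adjusted p = 0.0122). mboat2, a lysophospholipid acyltransferase gene, had 11.5, 9.46 and 14.1 FPKM in heat stress and 3.05, 5.65 and 4.68 FPKM in control, and rose (log2 fold change 1.49 ± 0.30, limma-voom adjusted p = 0.0196). ppap2d, a lipid phosphate phosphatase gene, had 42.7, 34.9 and 31.2 FPKM in heat stress and 17.1, 16.5 and 18.2 FPKM in control, and rose (log2 fold change 1.05 ± 0.22, limma-voom adjusted p = 0.0231). In each of these genes the lowest heat stress library was above the highest control, and 98.7% of all entries likewise showed no overlap. On the median-of-ratios scale mboat2 stood at -0.06 and ppap2d at -0.49, neither past the test. Leaving out control replicate 1 ended all 3 calls, with limma-voom adjusted p of 0.0884 for Etnk1, 0.130 for mboat2 and 0.102 for ppap2d. Those of Etnk1 and mboat2 were also lost without heat stress replicate 3, that of Etnk1 without control replicate 2, that of mboat2 without control replicate 3, and that of ppap2d without any library but heat stress replicate 3.

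The remaining glycerophospholipid members did not pass or had too few footprints. PLPP1, which shares its KEGG ortholog with ppap2d, had 2.67, 10.1 and 3.33 FPKM in heat stress and 0.00, 0.84 and 0.49 FPKM in control, with heat stress replicate 2 high (log2 fold change 3.50 ± 0.86, limma-voom adjusted p = 0.0562). PLPP1 met the footprint limit for the test only through the heat stress libraries. PLAAT4, a phospholipase and acyltransferase gene, had 10.6, 17.0 and 26.3 FPKM in heat stress and 39.6, 25.7 and 49.3 FPKM in control, so that heat stress replicate 3 lay above control replicate 2 (log2 fold change -1.12 ± 0.37, limma-voom adjusted p = 0.308). PGS1, the gene of the committed step of cardiolipin synthesis, had 5, 7 and 7 footprints in heat stress and 0 in every control library. That is 7.84-fold higher by the limit used for ch25h, with counting error in heat stress again left out. An entry for ywhag1, a 14-3-3 protein gene, has the same 6 footprint counts as PGS1 but other FPKM values. Over all tested entries 71.3% rose and 16.2% fell. Of 11 entries found by the start of a glycerolipid gene's symbol, 4 rose, 4 fell and 3 did not pass (median log2 fold change -1.22). Among those that are no members, LPIN1 and Lpin2, genes of phosphatidate phosphatases, went opposite ways. LPIN1 was at 0.873 ± 0.180 FPKM in heat stress and 3.90 ± 1.13 FPKM in control (SD, n = 3; limma-voom adjusted p = 0.0112, and 0.0551 at most with 1 library left out). Lpin2 was at 5.84 ± 1.0 FPKM in heat stress and 1.73 ± 0.248 FPKM in control (limma-voom adjusted p = 0.00561). The remaining entry that is no member, LPL, fell, at 29.6 ± 8.03 FPKM in heat stress and 79.7 ± 12.4 FPKM in control. Its log2 fold change was -1.47 ± 0.24 (limma-voom adjusted p = 0.00678, and 0.04 at most with 1 library left out).

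Both sphingolipid members rose by recovered depth, as did 71.3% of all tested entries. Sptlc2 encodes a subunit of serine palmitoyltransferase, the entry to sphingolipid synthesis. It had 17.5, 15.5 and 16.4 FPKM in heat stress and 7.02, 5.28 and 5.91 FPKM in control. Each group was tight, and the log2 fold change was 1.43 ± 0.23 (limma-voom adjusted p = 0.00565, up to 0.0308 with each library left out), but -0.12 on the median-of-ratios scale. CERS5, a ceramide synthase gene, had 2.77, 3.63 and 6.06 FPKM in heat stress and 0.46, 0.45 and 1.23 FPKM in control. The heat stress libraries held 17, 13 and 43 footprints of CERS5 and the controls 4, 3 and 7. CERS5 met the footprint limit for the test only through the heat stress libraries. The log2 fold change of CERS5 was 2.57 ± 0.56 (limma-voom adjusted p = 0.0282) and 1.06 on the median-of-ratios scale. The call was lost without control replicate 1 or 2 or heat stress replicate 2 or 3 (adjusted p up to 0.166). Of 4 entries found by the start of a sphingolipid gene's symbol, 2 rose, 1 fell and 1 did not pass (median log2 fold change 1.44). The 2 that are no members are entries of CERS2, a symbol left out of the members. One fell, at 37.4 ± 13.9 FPKM in heat stress and 85.4 ± 13.2 FPKM in control (SD, n = 3; log2 fold change -1.22 ± 0.27, limma-voom adjusted p = 0.0296, up to 0.138 with 1 library left out). The other did not pass (log2 fold change 1.46 ± 0.37, limma-voom adjusted p = 0.0630).

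The 3 entries of the KEGG ortholog prostaglandin E synthase 3 all rose by recovered depth. The protein, also called p23, is best known as a co-chaperone of Hsp90, and the pathway column files it under arachidonate metabolism. The more abundant PTGES3 entry had 184, 209 and 241 FPKM in heat stress and 29.1, 49.5 and 38.0 FPKM in control, which made it the most abundant member in heat stress. The less abundant PTGES3 entry had 57.8, 66.0 and 68.3 FPKM in heat stress and 3.20, 12.1 and 7.03 FPKM in control. The entry tebp, whose description begins with "progeste", had 67.2, 68.5 and 45.7 FPKM in heat stress and 9.96, 22.7 and 13.5 FPKM in control. In all 3 entries control replicate 2 was the highest control and still lay below every heat stress library, and 98.7% of all entries likewise showed no overlap. The log2 fold changes were 2.45 ± 0.25 and 3.32 ± 0.40 for the PTGES3 entries (limma-voom adjusted p = 0.000378 and 0.000963), and 2.04 ± 0.33 for tebp (limma-voom adjusted p = 0.00569). All 3 calls held with each library left out in turn, for tebp with an adjusted p up to 0.0424. The 3 estimates stayed above 0 on every scale tried, though none passed on the median-of-ratios scale. The tebp call was also lost with library sizes from summed listed footprints (log2 fold change 1.11). Salmonid genomes hold many near-identical gene copies, so reads may be shared or split between these entries. Of 3 entries found by the start of an eicosanoid gene's symbol, all 3 rose, as did 71.3% of all tested entries. Their median log2 fold change was 3.32, and all 3 are PTGES3 or the related Ptges3l.

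**Figure D3:**
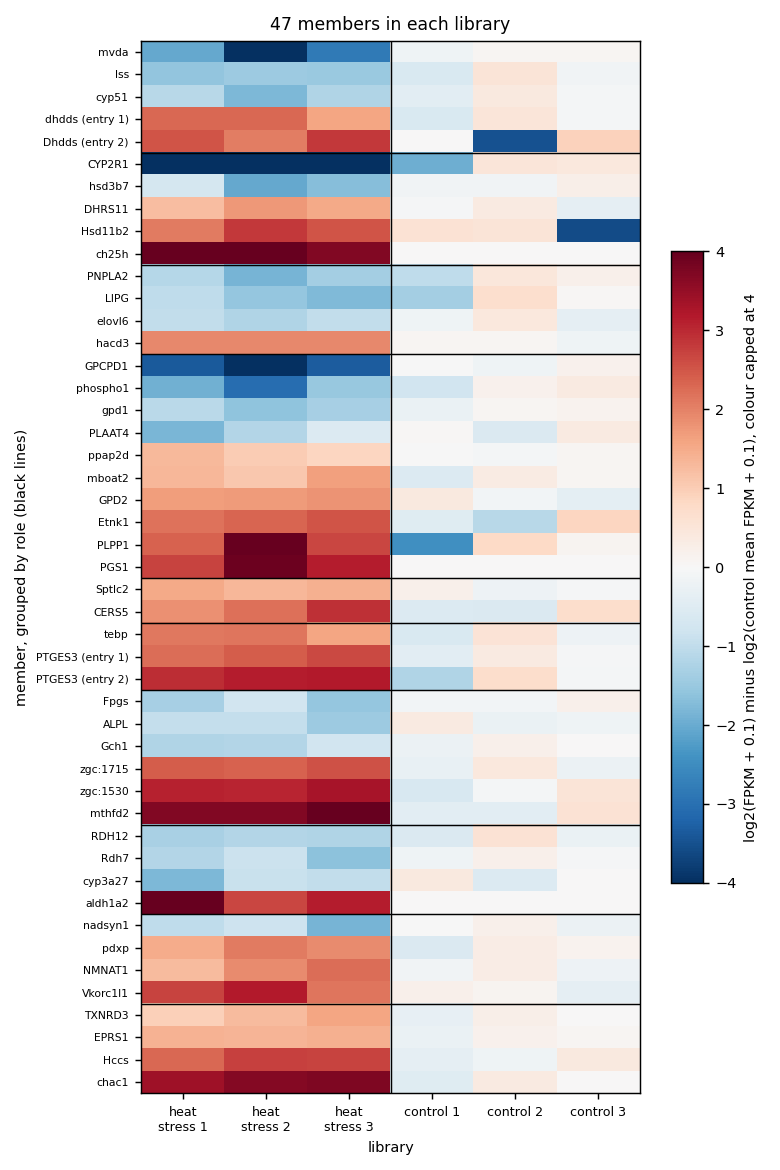
Level of 47 members in each library, as log2(FPKM + 0.1) minus that of the control mean, with red above and blue below it and colours capped at 4. Rows are grouped by role, with black lines between groups, and heat stress libraries stand left of control libraries. Some control cells stand apart from the others of their row, such as CYP2R1 in control replicate 1, Dhdds in control replicate 2 and Hsd11b2 in control replicate 3.

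Folate, biopterin and one-carbon metabolism has 7 members, of which 2 rose, 3 fell, 1 missed the threshold and 1 had too few footprints for the test. Gch1 encodes GTP cyclohydrolase, which starts tetrahydrobiopterin synthesis. It had 91.7, 92.9 and 125 FPKM in heat stress and 180, 241 and 213 FPKM in control. Every heat stress library was below every control, and 98.7% of all entries likewise showed no overlap. Gch1 fell with a log2 fold change of -1.04 ± 0.22 (limma-voom adjusted p = 0.0242). Fpgs, the gene of the synthase that adds glutamates to keep folate in the cell, had 8.50, 12.6 and 7.26 FPKM in heat stress and 19.8, 20.0 and 25.0 FPKM in control. Fpgs fell with a log2 fold change of -1.20 ± 0.25 (limma-voom adjusted p = 0.0215). ALPL, an alkaline phosphatase gene filed under folate synthesis, had 13.4, 13.5 and 9.46 FPKM in heat stress and 33.3, 22 and 23.3 FPKM in control, with control replicate 1 above the other controls. ALPL fell with a log2 fold change of -1.12 ± 0.26 (limma-voom adjusted p = 0.0362). The Gch1 call was lost without control replicate 2 or 3 or heat stress replicate 1 or 2 (adjusted p up to 0.114), that of Fpgs without any control library or heat stress replicate 3 (up to 0.135), and that of ALPL without any library but heat stress replicate 1 (up to 0.220).

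The 2 members of this group that rose carry cut symbols. The entry zgc:1530, whose description begins with "dihydrof", had 30.9, 30.1 and 35.8 FPKM in heat stress and 2.23, 3.36 and 5.11 FPKM in control. The entry zgc:1715, filed under folate synthesis, had 75.5, 71.9 and 81.1 FPKM in heat stress and 11.3, 18.7 and 11.7 FPKM in control. In each gene the groups lay far apart. The log2 fold changes were 3.36 ± 0.35 for zgc:1530 (limma-voom adjusted p = 0.000447) and 2.49 ± 0.25 for zgc:1715 (limma-voom adjusted p = 0.000293, the smallest of all members). Both calls held with each library left out, and zgc:1530 was the only member called higher on the median-of-ratios scale (log2 fold change 1.80).

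The untested folate gene had few footprints. mthfd2, the gene of the mitochondrial methylenetetrahydrofolate dehydrogenase, had 9, 5 and 16 footprints in heat stress and 0 in every control library, although control replicate 3 is listed at 0.10 FPKM. By the limit used for ch25h mthfd2 was 12.4-fold higher, with counting error in heat stress again left out. The table holds 4 such cells with 0 footprints and an FPKM above 0, among them CYP2R1 in heat stress replicate 2. Over all tested entries 71.3% rose and 16.2% fell. Of 7 entries found by the start of a folate gene's symbol, 3 rose, 2 fell, 1 missed the threshold and 1 went untested (median log2 fold change 1.23). Among those that rose, spryd3 and MTREX matched by the start of the symbol alone. MTRR, the gene of methionine synthase reductase and no member, was at 14.7 ± 1.58 FPKM in heat stress and 5.98 ± 0.398 FPKM in control (SD, n = 3; limma-voom adjusted p = 0.00742), and its log2 fold change was 1.29 ± 0.22 with recovered depth but -0.25 under median of ratios.

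Of the 4 retinol members 1 fell, 2 missed the threshold and 1 had too few footprints for the test. Rdh7, a retinol dehydrogenase gene, had 10.3, 13 and 7.39 FPKM in heat stress and 20.8, 27.1 and 22.6 FPKM in control, and fell (log2 fold change -1.26 ± 0.27, limma-voom adjusted p = 0.0246). This call was lost without any control library or heat stress replicate 3 (adjusted p up to 0.162). RDH12, another retinol dehydrogenase gene, had 18.0, 19.5 and 19.0 FPKM in heat stress and 29.6, 66.4 and 36.6 FPKM in control (log2 fold change -1.14 ± 0.31, limma-voom adjusted p = 0.0962). cyp3a27, a trout cytochrome P450 gene filed under retinol metabolism, had 13.6, 26.1 and 24.3 FPKM in heat stress and 63.0, 33.1 and 48.1 FPKM in control (log2 fold change -1.19 ± 0.31, limma-voom adjusted p = 0.0809). In all 3 genes the highest heat stress library was below the lowest control, and 98.7% of all entries likewise showed no overlap. aldh1a2, whose enzyme makes retinoic acid, had 13, 2 and 7 footprints in heat stress and 0 in every control library. That is 9.08-fold higher by the limit used for ch25h, with counting error in heat stress again left out. Over all tested entries 71.3% rose and 16.2% fell. Of 8 entries found by the start of a retinol gene's symbol, 1 rose, 4 fell, 2 missed the threshold and 1 went untested, with a median log2 fold change of -1.48. The entry that rose is DHRS11, which is filed under steroid hormone synthesis. The 8 entries include the plasma carrier gene rbp4, in its abundant entry at 3070 ± 340 FPKM in heat stress and 8598 ± 1350 FPKM in control (SD, n = 3; log2 fold change -1.48 ± 0.21, limma-voom adjusted p = 0.00316).

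The last 2 steps of NAD synthesis were represented by 1 gene each. NMNAT1, the nuclear adenylyltransferase gene, had 23.1, 35.9 and 45.3 FPKM in heat stress and 8.59, 11.7 and 8.32 FPKM in control, and rose (log2 fold change 1.83 ± 0.31, limma-voom adjusted p = 0.00748). nadsyn1, the NAD synthetase gene, had 3.13, 3.53 and 1.70 FPKM in heat stress and 6.38, 7.39 and 5.47 FPKM in control, and did not pass (log2 fold change -1.32 ± 0.33, limma-voom adjusted p = 0.0562). Neither gene's groups overlapped, as in 98.7% of all entries. The NMNAT1 call was lost without control replicate 1 (adjusted p = 0.0585). Over all tested entries 71.3% rose and 16.2% fell. Of 5 entries found by the start of a NAD gene's symbol, 1 rose, 1 fell and 3 did not pass (median log2 fold change -1.30). PNPLA2 among these 5 matched by the start of the symbol alone.

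The vitamin B6 and vitamin K members rose, as did 71.3% of all tested entries. pdxp, the pyridoxal phosphate phosphatase gene, had 19.5, 29.4 and 25.6 FPKM in heat stress and 4.55, 8.45 and 7.61 FPKM in control (log2 fold change 1.90 ± 0.31, limma-voom adjusted p = 0.00598). Vkorc1l1, the gene of an ER enzyme that reduces vitamin K epoxide, had 10.5, 14.6 and 7.12 FPKM in heat stress and 1.78, 1.66 and 1.16 FPKM in control (log2 fold change 2.55 ± 0.49, limma-voom adjusted p = 0.0144). The heat stress libraries of Vkorc1l1 rested on 30, 24 and 23 footprints and the controls on 7, 5 and 3. Vkorc1l1 met the footprint limit for the test only through the heat stress libraries. The pdxp call held with each library left out, and that of Vkorc1l1 was lost without control replicate 1 or 3 (adjusted p up to 0.0592). Of 5 entries found by the start of a symbol from the coenzyme A, B vitamin and ubiquinone list, 4 rose and 1 fell (median log2 fold change 2.55). The one that fell, coq8a, a gene needed for ubiquinone synthesis, was at 2.02 ± 0.144 FPKM in heat stress and 8.78 ± 2.67 FPKM in control (SD, n = 3; limma-voom adjusted p = 0.00895, and 0.0519 at most with 1 library left out).

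The 4 members filed under porphyrin, glutathione and selenium metabolism all rose by recovered depth, as did 71.3% of all tested entries. chac1, whose enzyme breaks down glutathione and which is a known target of the integrated stress response in mammals, had 8.06, 9.73 and 10.1 FPKM in heat stress and 0.45, 0.88 and 0.68 FPKM in control. The heat stress libraries held 26, 18 and 37 footprints and the controls 2, 3 and 2. The log2 fold change was 3.60 ± 0.49 (limma-voom adjusted p = 0.00215), the largest among the members that passed. chac1 met the footprint limit for the test only through the heat stress libraries. Hccs, the gene of the synthase that attaches heme to cytochrome c, had 16.5, 22.2 and 21.9 FPKM in heat stress and 2.54, 2.90 and 4.35 FPKM in control (log2 fold change 2.66 ± 0.34, limma-voom adjusted p = 0.00137). Both genes kept their call with each library left out.

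EPRS1, a bifunctional aminoacyl-tRNA synthetase gene that KEGG files under porphyrin metabolism, had 6.54, 6.49 and 6.70 FPKM in heat stress and 2.01, 2.76 and 2.59 FPKM in control (log2 fold change 1.45 ± 0.23, limma-voom adjusted p = 0.00508). TXNRD3, a thioredoxin reductase gene, had 20.3, 25.5 and 31.7 FPKM in heat stress and 8.39, 12.4 and 10.7 FPKM in control (log2 fold change 1.30 ± 0.25, limma-voom adjusted p = 0.0149). Under median of ratios the estimates were -0.10 for EPRS1 and -0.24 for TXNRD3, neither past the test. EPRS1 kept its call with each library left out, and TXNRD3 lost it without control replicate 1 or 3 or heat stress replicate 2 or 3 (adjusted p up to 0.0895). Of 4 entries found by the start of a glutathione or taurine gene's symbol, 2 rose and 2 did not pass (median log2 fold change 2.36), where GADD45B matched by the start of the symbol alone. Of 9 found by the start of a heme or bile pigment symbol, none of them a member, 5 rose, 2 fell and 2 did not pass (median log2 fold change 1.07). CPI17, CPLX3 and Cpxm1 among these 9 matched by the start of the symbol alone. Over all tested entries 71.3% rose and 16.2% fell.

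By their medians, the members that fell were the more abundant ones in control and the less abundant ones in heat stress. The 10 members that fell had a median of 7.35 FPKM in heat stress and 21.7 FPKM in control, and the 21 that rose had a median of 24.8 FPKM in heat stress and 6.07 FPKM in control. Over all called entries of the table the control medians were 16.5 FPKM for those that fell and 4.27 FPKM for those that rose, so the table as a whole shows the same order. Genes that fell can be listed through their control level alone, and genes that rose through their heat stress level. How far the choice of genes set this order was not tested. The summed footprints of the 48 members per depth of control replicate 1 were 7359, 7836 and 8162 in heat stress replicates 1, 2 and 3, and 6424, 9169 and 7499 in control replicates 1, 2 and 3, so that the groups overlapped. As a share of listed footprints the members took 0.782%, 0.739% and 0.775% in heat stress and 1.28%, 1.67% and 1.36% in control. Of the listed genes 76.2% are higher in heat stress, so this share can fall without a fall of the members.

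**Figure D4:**
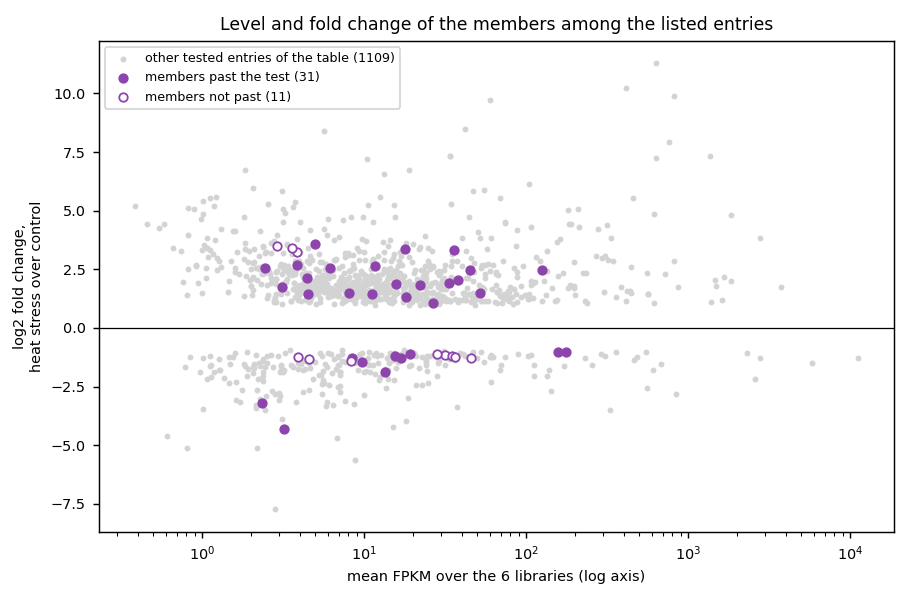
Log2 fold change, heat stress over control, against mean FPKM over the 6 libraries on a log axis, for the 31 members past the test (filled), 11 members not past it (open) and the 1109 other tested entries (grey). The empty band around 0 follows from the authors' 2-fold limit, and the members lie within the cloud of the other entries on both sides of it.

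Control replicate 1 stood apart from the other controls in several members. It was the lowest control in 25 of the 48 members, 52.1%, against 42.5% of all entries, and the highest in 7. In CYP2R1, PNPLA2, LIPG, phospho1 and the less abundant PTGES3 entry it lay well below the other controls, and in ALPL and cyp3a27 it lay above them. The part of this in the results was not tested beyond leaving that library out.

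The labelled tissue was checked against listed marker genes. Among 14 hepatocyte markers, 12 entries matched by the start of a symbol, with summed levels of 11190 to 17945 FPKM in heat stress and 31470 to 32833 FPKM in control. They include apoa-i-1, alb1 and rbp4, and HPCAL1, TFG, tfcp2l1 and HP1BP3 matched by the start of the symbol alone. No entry matched the 5 red blood cell or the 7 leukocyte markers. The 1 stromal entry, col1a1b, summed to 26.9 to 30.0 FPKM in heat stress and 57.4 to 70.4 FPKM in control, the 2 muscle entries to 0.620 to 1.26 FPKM and 4.72 to 14.2 FPKM, and the 2 oocyte entries to 0.970 to 2.29 FPKM and 6.60 to 8.67 FPKM. Because only changed genes are listed, a marker that is not listed may be present and unchanged. The lower hepatocyte marker levels move with the falls described above, and their part in them was not tested. In bulk liver, fewer cells of a type and fewer footprints per cell cannot be told apart, and without a matched RNA measurement neither can mRNA amount and translation.

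Both other library scales moved all entries alike to lower values, by -0.93 in the median log2 fold change of all tested entries with summed listed footprints and by -1.54 under median of ratios. A member that fell could only fall further on them, so they do not test the falls, and no scale that moves values the other way was tried. Of the 21 that rose, 7 passed as higher with listed footprints and 1 under median of ratios. The sign turned under median of ratios in 6, namely DHRS11, EPRS1, TXNRD3, Sptlc2, ppap2d and mboat2, of which 0 then passed the test. Over all tested entries, 821 passed as higher by recovered depth and 88 under median of ratios. The entries that passed with listed footprints, or whose sign turned, were not counted over the whole table.

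**Figure D5:**
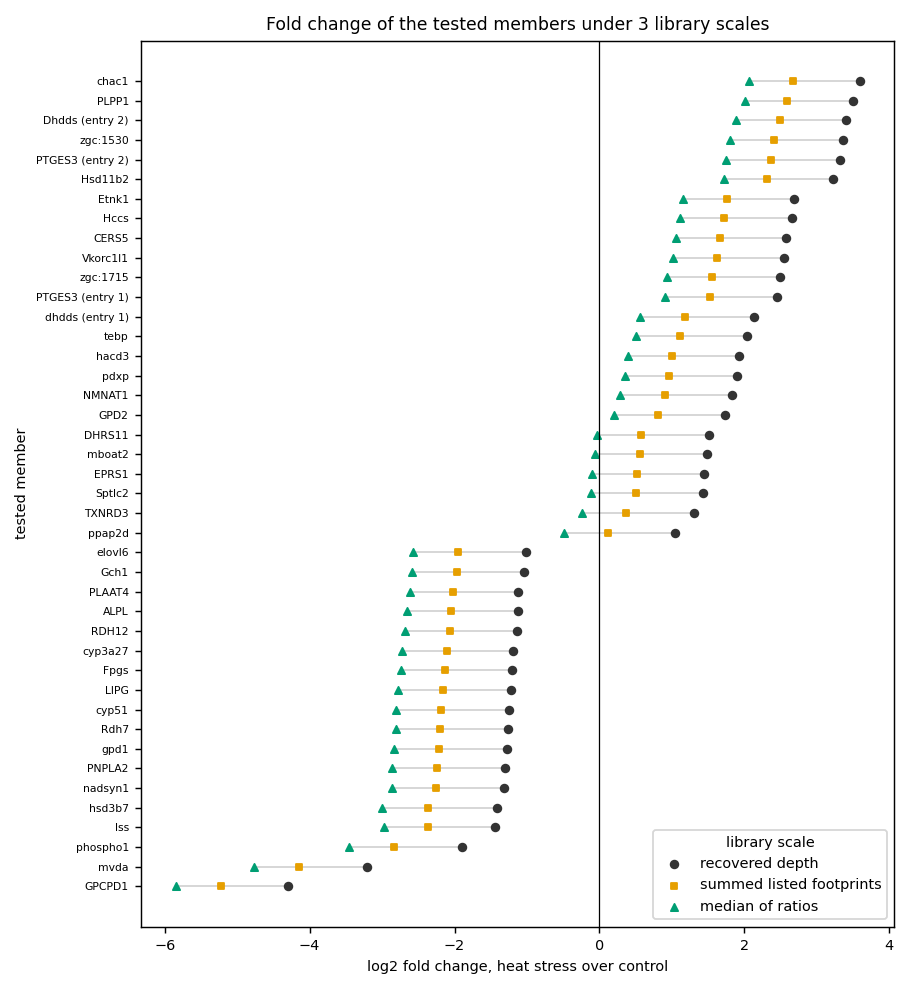
Log2 fold change, heat stress over control, of 42 tested members under 3 library scales: recovered depth (black circles), summed listed footprints (orange squares) and median of ratios (green triangles). Rows are members in the order of their change by recovered depth, and grey lines join the values of one member. The values shift together to the left, and the 6 rises that cross 0 are among those with the smallest change by recovered depth.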

How the data were processed

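Footprint counts and FPKM of 6 liver libraries, 3 heat stress and 3 control, came from the authors' deposited table, read as fixed-width text of 8 characters per cell. Per the file headers it also holds an FDR, a p-value, a log2 fold change and group mean FPKM. The submitters' processing notes list Bowtie2 and edgeR without role or version. The build, annotation and counter were not given. Gene identifiers are cut, so no coordinates are given, and 411 lines of overflowed annotation were not used.

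Library sizes were recovered from count over FPKM ratios of 94 genes with at least 200 footprints and 10 FPKM (SD at most 1.2%). limma-voom (limma 3.58.1, R 4.3.3) was fitted on the whole table, with Benjamini-Hochberg adjustment over about 29300 genes, the number the authors tested as estimated from FDR, rank and p-value. edgeR and TMM were not run here, because cells that touch kept the count unit from being entered for the unit check. On simulated counts for 1213 genes, 58.5% of genes changed by 1 on the log2 scale, 94.7% of those changed by 2 and 0% of unchanged genes were called. The simulation gave all genes the same dispersion, left most unchanged, balanced rises and falls, and took the depths as known. The deposited table holds only changed genes, mostly rises, so these shares need not hold for it. Members are named with their values in each library, except 1 member of the folate group, which is in the counts but is not reported here. The members and gene lists were chosen with earlier results of these data known, and lists were matched by the start of a symbol. The alternatives were library scales, filters, limma-trend with pseudocounts of 1 and 0.1, a replicate block, another adjustment, and each library left out. Same-numbered libraries did not deviate together (correlations -0.05, -0.04 and 0.01 over 1152 genes). This cannot exclude pairing, and the labels do not say whether the numbers pair samples, so the main test used no pairing. Other software was Python 3.11.15 with scipy 1.17.1, numpy 2.4.6, matplotlib 3.10.9 and pandas 2.3.3.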

Additional observations from a re-analysis of the deposited data

How the results depend on the processing

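Of 21 members higher and 10 lower past the test, library sizes from listed footprints gave 7 and 18, median of ratios 1 and 18, genes with at least 10 FPKM in 3 libraries 13 and 4 (26 members tested), and adjustment over the deposited table alone 25 and 18. The replicate block gave 25 and 16, although it is unknown whether the numbers pair samples. Limma-trend on log2(FPKM + 1) gave 24 and 10, on log2(FPKM + 0.1) 21 and 7, and no filter 25 and 10 (48 members tested). Without a filter, 4 of the 5 members otherwise untested were called higher, all with 0 control footprints. The remaining 1, CYP2R1, was called lower, while phospho1 lost its call. With 1 library left out the counts ran between 13 and 20 higher and between 2 and 7 lower. Apart from median of ratios, the shares of all tested entries under these settings were not counted. Whether the members depend on the settings more than the table does was therefore not tested. The median log2 fold change of the tested members, 1.45, was 0.52 with listed footprints, -0.10 under median of ratios, 0.01 for genes with at least 10 FPKM, 1.23 with limma-trend on log2(FPKM + 1), and between 1.30 and 1.47 with 1 library left out. Under median of ratios the sign turned for DHRS11 (-0.03), EPRS1 (-0.10), TXNRD3 (-0.24), Sptlc2 (-0.12), ppap2d (-0.49) and mboat2 (-0.06). These scales take the listed genes as unchanged or equal in sum by construction. The cause of the other changes was not tested. Heat stress replicate 2, at 41.4% of the depth of control replicate 1, held 0 footprints of GPCPD1, mvda and CYP2R1.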
